A study of Mus musculus with 32 samples.

Results

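The genes described here are 8 components of the mammalian circadian clock and its immediate output, namely Per1, Per2, Per3, Cry2, Tef, Hlf, Nr1d1 and Nr1d2. They were picked by symbol from 10055 distinct genes in 4 deposited tables, and their difference between genotypes in these same libraries was known when they were picked. The difference is therefore given as a description without a test. Polyadenylated RNA was sequenced from liver, duodenum, jejunum and ileum of male mice that lack ketohexokinase (Khk KO), the kinase through which fructose enters metabolism, and of wild-type (WT) male mice, in 8 groups of 4 libraries. The design asked how fructose and ketohexokinase act on iron handling. The strain, the age, the way the Khk allele was made, the diet and the time of day at which tissue was taken are not given in the sources used here, nor whether 1 mouse gave all 4 organs. Every table held genes with an unadjusted p under 0.05 for Khk KO against WT and no others, so that a gene missing from an organ's table was not analysed here for that organ. Of the 8 clock genes 6 were in the table for liver, 3 in that for duodenum and 4 each in those for jejunum and ileum, which makes 17 gene and organ entries of a possible 32.

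The clock is a transcriptional feedback loop that runs in nearly every cell. The activators CLOCK and BMAL1 (the product of Arntl) bind E-boxes and switch on the Per and Cry genes, whose proteins enter the nucleus and repress their own activators. An interlocked loop runs through the nuclear receptors REV-ERB alpha and beta, products of Nr1d1 and Nr1d2, which repress Arntl at ROR elements. Tef and Hlf encode PAR bZIP factors that carry the rhythm to metabolic genes through D-boxes, in liver and intestine among other tissues, where feeding time is a known cue.

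Promoter windows from RefSeq (GRCm38.p6), running from 250 bases before to 50 bases after an annotated start site, were at hand for 7 of the 8 genes, 9 windows in all. Each was searched on both strands for the E-box CACGTG, the related CACGTT (here E-prime box), the D-box TTANGTAA and the ROR half-site AGGTCA. A set of 4 windows is shown because together they hold E-boxes, an E-prime box and D-boxes, with the matches in capitals. The capitals mark an E-box and then a ROR half-site in Per1, an E-box in the downstream window of Tef, a pair of D-boxes in Per3 and an E-prime box in Nr1d1.
Per1 (chr11:69098699-69098998, plus strand): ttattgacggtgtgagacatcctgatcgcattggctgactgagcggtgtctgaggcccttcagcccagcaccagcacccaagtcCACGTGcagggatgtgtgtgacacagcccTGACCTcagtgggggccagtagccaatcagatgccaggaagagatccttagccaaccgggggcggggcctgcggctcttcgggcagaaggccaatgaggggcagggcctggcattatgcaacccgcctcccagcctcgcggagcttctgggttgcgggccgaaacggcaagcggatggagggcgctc
Tef (chr15:81811164-81811463, plus strand): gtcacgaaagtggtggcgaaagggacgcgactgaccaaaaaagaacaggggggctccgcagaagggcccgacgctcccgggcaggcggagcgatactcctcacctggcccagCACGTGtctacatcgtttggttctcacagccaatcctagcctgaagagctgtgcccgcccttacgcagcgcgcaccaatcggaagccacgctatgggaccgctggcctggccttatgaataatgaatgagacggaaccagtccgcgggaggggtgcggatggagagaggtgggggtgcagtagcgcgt
Per3 (chr4:151044616-151044915, minus strand): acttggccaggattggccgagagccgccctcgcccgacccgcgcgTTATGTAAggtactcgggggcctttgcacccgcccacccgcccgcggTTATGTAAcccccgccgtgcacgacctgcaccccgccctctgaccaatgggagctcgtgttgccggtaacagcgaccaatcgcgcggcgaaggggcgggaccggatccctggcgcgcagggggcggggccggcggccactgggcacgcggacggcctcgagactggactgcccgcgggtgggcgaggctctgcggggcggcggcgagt
Nr1d1 (chr11:98775328-98775627, minus strand): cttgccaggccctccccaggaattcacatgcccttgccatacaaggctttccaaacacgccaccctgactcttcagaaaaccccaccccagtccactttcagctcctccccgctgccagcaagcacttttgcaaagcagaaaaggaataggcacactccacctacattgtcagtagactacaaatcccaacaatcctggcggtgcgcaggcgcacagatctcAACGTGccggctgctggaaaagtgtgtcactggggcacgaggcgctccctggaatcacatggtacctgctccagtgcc
Counted from the start site, the E-box of Per1 began at position -166 and that of this Tef window at -138. Per3 carried D-boxes at -205 and -158, and Nr1d1 its E-prime box at -28. An E-box was found in 3 of the 9 windows, which belong to 2 genes, Per1 and Tef, against 7.15% of 32851 mouse windows of the same length. An E-box or E-prime box stood in 5 of the 9, for which no joint share of all windows is given here. The E-prime box by itself was in 4.68% of all windows. A D-box stood in 1 of the 9, against 2.32% of all windows. The ROR half-site stood in 2 of the 9, against 16.3%, so that this count lay near the background. These matches describe the letters of each window and do not show that a factor binds there.

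The targeted gene was checked before the clock genes. Khk averaged 876 ± 108 normalised counts in Khk KO liver and 7922 ± 2635 in WT liver (SD, n = 4), where a normalised count is a read count divided by the library's size factor. Every Khk KO library lay below every WT library in all 4 organs. The summed reads of the genes in a table ran from 1722220 to 14331517 per library, and a clock gene had at least 120 reads in each library of its table. Nothing in the labels says that the libraries of a group came from separate mice, so the spread given is that between these libraries. Among coding genes of the tables averaging 100 normalised counts or more, the genotypes differed along gene length. The slope of a library's log2 deviation from the organ mean, per doubling of length, was 0.23 to 0.28 in Khk KO and -0.51 to 0.032 in WT liver, and the genotypes did not overlap in duodenum, jejunum or ileum either. Genes entered a table through a difference between the genotypes, which favoured such a separation from the start. Nothing is therefore read from the lack of overlap, and the slope over all expressed genes is not known here. Of the clock genes Nr1d1, at 3077 bases, is shorter than the median of 4740 for such coding genes of the liver table, and the others, from 5409 to 9608 bases, are longer. Fold changes below are therefore set beside those of the 200 coding genes nearest in length in the same table, and the share of neighbours below a clock gene is always taken from the log2 values of the authors' deposited table. Gene positions are on GRCm38 as the tables give them. Of 52 marker genes of other cell types and of the tissues themselves, 17 were in the liver table, 15 of them lower in Khk KO. The erythroid markers summed to 2967 to 3515 normalised counts in Khk KO liver against 4584 to 10959 in WT liver, and all of them found in an organ's table were lower in Khk KO. The hepatocyte list had 4 of 5 genes in the liver table, 1 higher and 3 lower in Khk KO. They summed to 323930 to 333134 in Khk KO and 328582 to 398070 in WT. No enterocyte marker was in the duodenum table, so that label was not checked by them. Of the 17 markers in the table for ileum, 15 were lower in Khk KO. They included 3 of 5 enterocyte markers (Fabp2, Alpi and Apoa4), whose sum was 16379 to 24722 normalised counts in Khk KO against 29505 to 53579 in WT, with no overlap. Of the 16 in that for jejunum, 15 were lower, among them 4 of 6 smooth muscle markers (Acta2, Des, Actg2 and Cnn1), whose sums overlapped at 7709 to 11341 against 9428 to 22433. The jejunum table held 2 enterocyte markers, 1 higher and 1 lower. The marker values were not set beside those of genes of similar length, so the part of the length difference in them was not tested. The part of blood or cell make-up in the clock values was not tested either. In whole tissue fewer cells of a type and less RNA per cell cannot be told apart.

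All 17 entries had a higher mean in Khk KO than in WT. Among all genes of the tables, 51.3% were higher in Khk KO in ileum, 54% in jejunum, 42.1% in duodenum and 54% in liver. In 10 of the 17 entries the 4 Khk KO libraries all lay above the 4 WT libraries, which was so for 34.3% of all genes in the liver table, 20% in duodenum, 33% in jejunum and 36.9% in ileum. In the authors' deposited table an adjusted p under 0.05 stood beside 6 of 6 clock genes in liver, 1 of 4 in ileum, 1 of 3 in duodenum and 0 of 4 in jejunum, the unadjusted p being under 0.05 for all by the make-up of the tables. The edgeR refit put 4 of 6 under that threshold in liver (Tef and Hlf not among them, at adjusted p-values of 0.0511 and 0.0810), 1 of 4 in ileum, 0 of 3 in duodenum and 0 of 4 in jejunum. At an unadjusted p under 0.05 the refit held 6 of 6 in liver, 3 of 3 in duodenum, 3 of 4 in jejunum and only 1 of 4 in ileum. DESeq2 called 6, 1, 0 and 1 in the same order. The share of all genes passing is not given here for DESeq2 or for the refit's unadjusted p. Those counts therefore have no background beside them. Over all genes the authors tested, whether or not in a table, the authors' share called higher in Khk KO was 8.76% in ileum, 0.536% in jejunum, 0.128% in duodenum and 12.5% in liver, and the share called lower was 6.86%, 0.223%, 0.0961% and 11.4% in the same order. Over the genes in the tables, the base on which the clock genes are counted, the authors' share called higher was 27.1%, 2.2%, 1.28% and 35.8%. The edgeR refit's share called higher on that base was 23.2% in ileum, 0% in jejunum, 0% in duodenum and 20.5% in liver. Since this contrast chose the genes, nothing is read from these counts. Leaving out any single library kept all 17 log2 fold changes above 0, between 0.27 and 1.52. Entry to a table had required a p under 0.05 with all libraries in. A change of sign was therefore unlikely from the start, and nothing is read from its absence.

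**Figure D1:**
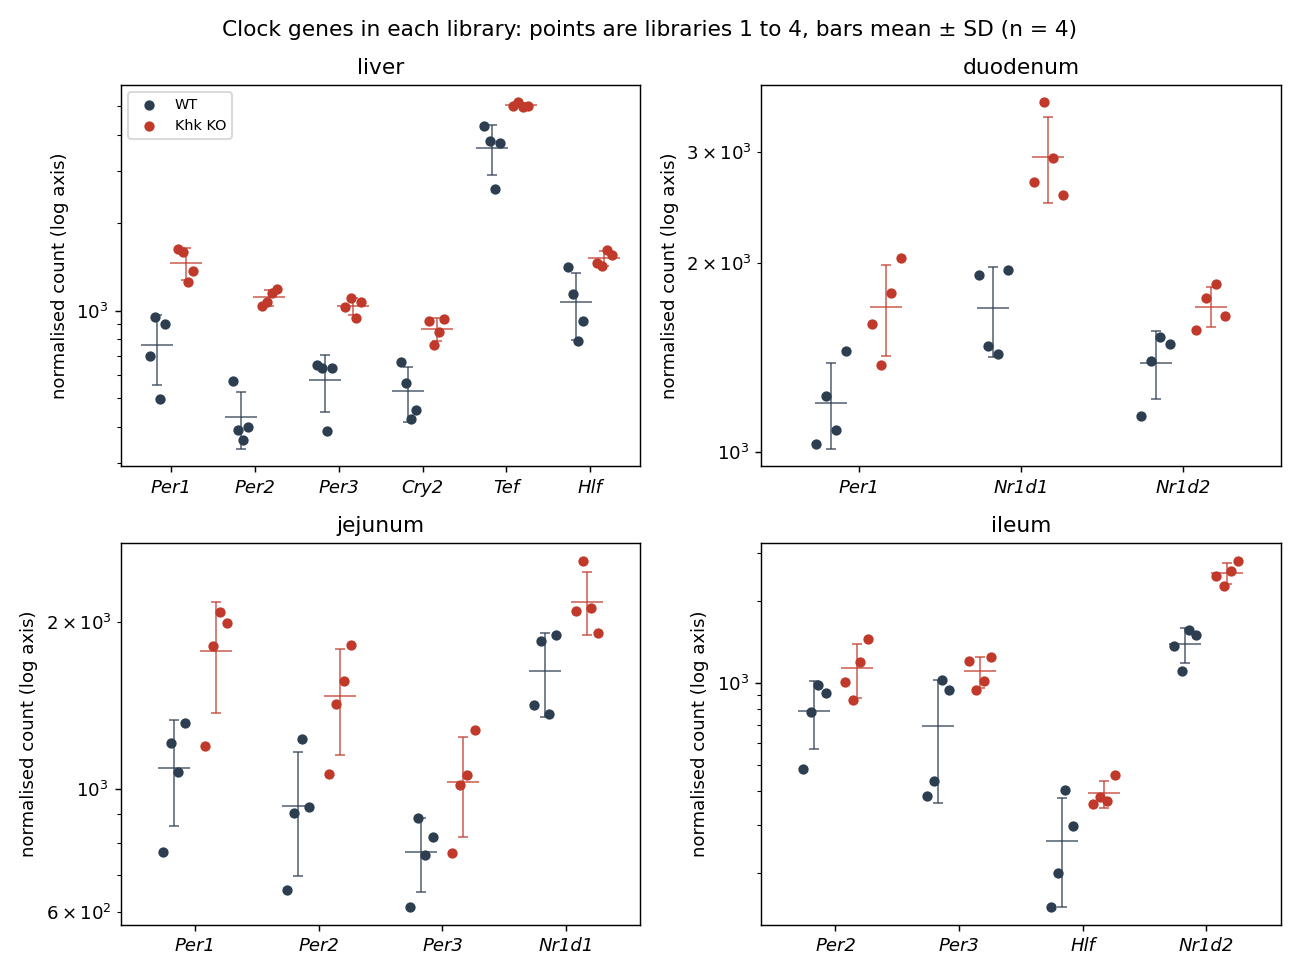
Normalised counts (log axis) of each clock gene in each library, by organ, with WT libraries in dark blue and Khk KO libraries in red, replicates 1 to 4 from left to right, and bars for the mean ± SD (n = 4). In liver the 4 Khk KO libraries lie above the 4 WT libraries for all 6 genes, while in ileum they do so for Nr1d2 alone of 4.

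Among the period genes, which encode the repressors of the loop, Per2 stood farthest apart in liver. Per2 (ENSMUSG00000055866, chromosome 1, 91415982 to 91459324, minus strand) had 1035, 1068, 1147 and 1185 normalised counts in the Khk KO livers and 572, 389.5, 361 and 400.5 in the WT livers. The means were 1109 ± 69.2 against 431 ± 95.7 (SD, n = 4), 2.57-fold apart, or 1.39 ± 0.17 on the log2 scale (SE, edgeR refit). The lowest Khk KO liver was thus well above the highest WT liver, replicate 1. Of the 200 coding genes nearest in length, 95% had a smaller log2 fold change than Per2 in the authors' deposited table, where their median was 0.57. With each library's trend along gene length taken out, Per2 in liver was 1.04 ± 0.11 (SE) on the log2 scale, the largest value left among the liver clock genes.

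Per1 (ENSMUSG00000020893, chromosome 11, 69095217 to 69109960, plus strand), which besides the clock also responds to glucocorticoids, had 1629, 1586, 1248 and 1361 normalised counts in Khk KO liver against 699, 947, 499 and 902 in WT liver. WT replicate 3 was the lowest and no library crossed between the genotypes. The liver means of Per1 were 1456 ± 182 and 762 ± 206 (SD, n = 4). On the log2 scale they differed by 0.96 ± 0.21 (SE), and by 0.65 with the length trend taken out. In duodenum Per1 averaged 1701 ± 280.4 in Khk KO against 1199 ± 187 normalised counts in WT (SD, n = 4). In jejunum the Per1 means were 1768 ± 399 and 1092 ± 236 (SD, n = 4). The genotypes overlapped in both segments, with 3 of 4 Khk KO libraries above every WT library in each. The log2 fold changes of Per1 were 0.63 in duodenum and 0.68 in jejunum, and 79.5% and 84% of the length neighbours lay below it.

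Per3 (ENSMUSG00000028957, chromosome 4, 151003652 to 151044665, minus strand), the longest of the 8 genes, had liver means of 1036 ± 71.2 normalised counts in Khk KO and 578 ± 128 in WT (SD, n = 4). Its liver log2 fold change of 0.87 ± 0.18 (SE) became 0.10 with the length trend taken out, and 62% of its length neighbours lay below it. The jejunum value of Per3 likewise went from 0.40 to -0.014, with 36.5% of the neighbours below. In ileum Per3 had 1207, 942, 1018 and 1248 normalised counts in Khk KO and 383, 434, 1023 and 939.9 in WT. The WT ilea thus fell apart, with replicate 3 inside the Khk KO range, replicate 4 just below it and replicates 1 and 2 far below it. Per2 in jejunum averaged 1467 ± 316 against 930.2 ± 234 normalised counts (SD, n = 4), and in ileum 1131 ± 255 against 791 ± 222 (SD, n = 4), with overlap between the genotypes in both. Its log2 fold changes there were 0.64 and 0.50, and 0.49 and 0.27 with the length trend taken out.

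Cry2 (ENSMUSG00000068742, chromosome 2, 92403646 to 92434043, minus strand), the cryptochrome partner of the period proteins, was in the liver table only. Its counts there were 917, 762, 841 and 935 in Khk KO against 669, 565, 424 and 455 normalised counts in WT, with no overlap. The log2 fold change of Cry2 was 0.73 ± 0.18 (SE), above 70% of its length neighbours, and 0.30 ± 0.12 (SE) with the length trend taken out. An antisense transcript, D930015M05Rik, covers 4.67% of its exon bases, and as the labels do not say which of 2 chemistries was used, one that keeps strand and one that does not, reads of the pair cannot be told apart.

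Of the REV-ERB genes, Nr1d1 (ENSMUSG00000020889, chromosome 11, 98767932 to 98775333, minus strand) was higher in Khk KO than in WT in duodenum and jejunum, while most coding genes of its length were lower. It had 2690.0, 3599, 2935 and 2568 normalised counts in Khk KO duodenum against 1916, 1475, 1435 and 1948 in WT duodenum. In jejunum the values were 2090.2, 2576, 2117 and 1909.8 in Khk KO and 1413, 1845, 1362 and 1895 in WT. The genotypes were far apart in duodenum and only just separate in jejunum, where the lowest Khk KO and the highest WT library nearly met. The log2 fold changes of Nr1d1 were 0.94 ± 0.14 (SE) in duodenum and 0.41 ± 0.17 (SE) in jejunum. In the authors' deposited table Nr1d1 was 0.80 in duodenum and 0.42 in jejunum. The median of the length neighbours there was -0.35 in duodenum and -0.40 in jejunum, with 93.5% and 76.5% of them below Nr1d1. Taking out the length trend left 0.95 in duodenum and gave 0.70 in jejunum. The exons of Thra on the opposite strand share 8.55% of the exon bases of Nr1d1, so a part of its reads is uncertain. Thra was in the ileum table alone, with a log2 fold change of -0.35 ± 0.11 (SE).

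Nr1d2 (ENSMUSG00000021775, chromosome 14, 18204054 to 18239127, minus strand) had 2468, 2269.8, 2592 and 2823 normalised counts in Khk KO ileum and 1363, 1107, 1569 and 1504 in WT ileum, without overlap. The ileum means of 2538 ± 232 and 1386 ± 205 (SD, n = 4) differed 1.83-fold. On the log2 scale this was 0.88 ± 0.13 (SE), above 85.5% of the length neighbours, 0.71 with the length trend taken out and 0.38 with the trend along GC content taken out. In duodenum the difference of Nr1d2 was smaller, at 1705 ± 125 against 1387 ± 172 normalised counts (SD, n = 4), or 0.42 ± 0.16 (SE) on the log2 scale. The authors' deposited value of 0.30 sat in the middle of its length neighbours, 49% of which were lower.

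The PAR bZIP genes Tef and Hlf lay below the median of their length neighbours in liver. Tef (ENSMUSG00000022389, chromosome 15, 81802421 to 81826863, plus strand) had 5031, 5168, 4984 and 5003 normalised counts in Khk KO liver against 4289, 3809, 2616 and 3755 in WT liver. The Khk KO livers lay within a narrow band above the WT livers, which spread widely with replicate 3 lowest. The log2 fold change of Tef was 0.50 ± 0.15 (SE), only 21% of its length neighbours lay below it, and the value turned to -0.13 with the length trend taken out. Hlf (ENSMUSG00000003949, chromosome 11, 90336536 to 90390895, minus strand) averaged 1508 ± 89.0 against 1065 ± 275 normalised counts in liver (SD, n = 4). Its lowest Khk KO liver, at 1415, all but touched the highest WT liver at 1414. The liver log2 fold change of Hlf was 0.52 ± 0.19 (SE) and 0.04 with the length trend taken out, and 32.5% of its length neighbours lay below it. In ileum Hlf had 359.6, 380.1, 368 and 459 normalised counts in Khk KO and 149, 199, 404 and 298 in WT, so that a single Khk KO library exceeded every WT library. An antisense transcript, Gm17597, covers 2.45% of the exon bases of Tef.

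**Figure D2:**
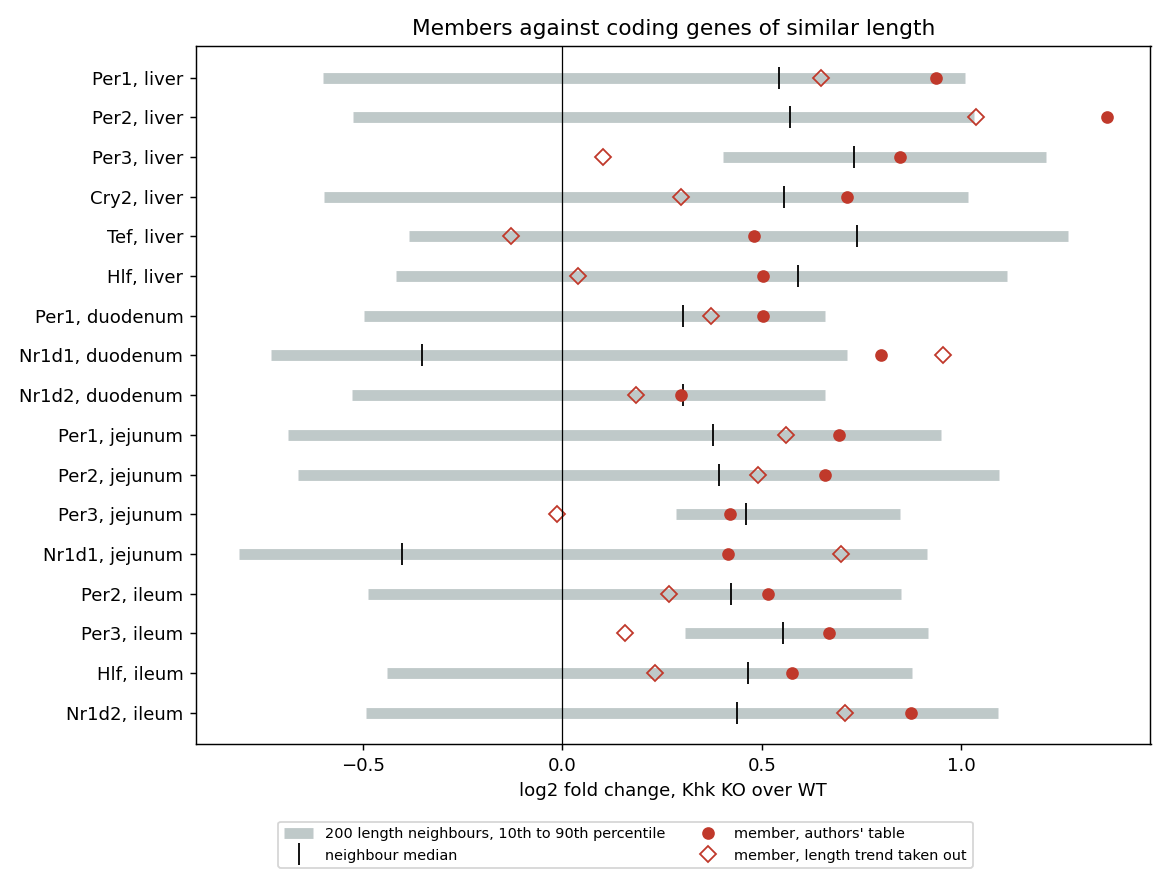
Log2 ratio of Khk KO to WT for each clock gene and organ in the authors' deposited table (filled circles) and in the edgeR refit with the length trend taken out (open diamonds), against the 10th to 90th percentile (grey bars) and median (ticks) of the 200 coding genes nearest in length in the same table. Per2 in liver and Nr1d1 in duodenum lie to the right of the grey bars, and Tef in liver lies left of its neighbours' median of 0.74.

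Of the 17 entries, 13 lay above the median of their length neighbours in the authors' deposited table. With the length trend taken out 15 stayed above 0, and with the GC trend taken out, an alternative chosen after seeing the data, 17 did. The latter lowered Hlf to 0.20 in liver and 0.21 in ileum and raised Per2 in ileum to 0.83. The median log2 fold change of the clock genes was 0.61 in ileum, 0.52 in jejunum, 0.63 in duodenum and 0.80 in liver. In the authors' deposited table the medians were 0.62, 0.54, 0.50 and 0.78, and those of all genes in the tables were 0.30, 0.35, -0.33 and 0.42, in the same order. In the refit the medians of all genes in the tables were -0.27, 0.25, -0.18 and 0.33, so that of ileum changed sign. In ileum 51.3% of the table genes were higher in Khk KO, so few genes decide the sign of that median. TMM itself shifted the ileum log2 fold changes by only 0.0069 at the median, relative to the authors' size factors. The refit's median of the clock genes became 0.20 in liver and 0.37 in duodenum with the length trend taken out. Relative to the authors' size factors, TMM shifted duodenal log2 fold changes up by 0.15 at the median, and in the other organs by under 0.1. Because the neighbours come from tables of genes with a small p, they are no sample of all genes of that length.

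Levels per length, as FPKM of the authors, ordered the genes in WT tissue. Each order covers only the clock genes in that organ's table, and the level of a missing gene is not known here. In WT liver Tef was highest at 39.5 ± 7.31, apart from Hlf at 13.7 ± 3.35 FPKM (SD, n = 4). Hlf, Per1 (11.6), Cry2 (7.17), Per2 (6.31) and Per3 (5.16 FPKM) followed, each overlapping its neighbour in that order. Nr1d1 led in duodenum at 26.8 ± 4.37 FPKM and in jejunum at 31.2 ± 5.17 FPKM (SD, n = 4), above the next gene without overlap in each. Nr1d2 led in ileum at 12.3 ± 1.83 FPKM, with Per2, Per3 and Hlf below it. Between organs, whose tables were scaled separately, the WT ranges of Per1, Per2, Per3, Nr1d1 and Nr1d2 overlapped for every neighbouring pair in the order of levels. Hlf did not overlap, at 13.7 FPKM in liver against 1.89 ± 0.83 FPKM (SD, n = 4) in ileum, and Cry2 and Tef were in 1 table.

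Whether the clock genes varied together among libraries of 1 genotype was described with the genotype difference removed. The p that let a gene into a table also depends on the spread within a genotype. This measure is therefore not independent of how the genes came to be analysed. Each library's log2(normalised count + 1) was taken as its deviation from the mean of its own genotype, and Pearson's r was computed over the 8 libraries of an organ. In ileum all 6 pairs were positive, with a mean r of 0.73 (rho 0.79), from 0.51 for Per2 with Nr1d2 to 0.93 for Per3 with Hlf. Per2, Per3 and Hlf were lowest among the WT ilea in replicate 1, where the mean deviation was -0.53, and Nr1d2 in replicate 2, while all 4 genes were highest among them in replicate 3. In liver 14 of 15 pairs were positive with a mean r of 0.63 (rho 0.48), the strongest being Per3 with Tef at 0.95, and Per1 with Per2 stood at -0.034. Jejunum had 5 of 6 positive pairs and a mean r of 0.50 (rho 0.40), led by Per1 with Per3 at 0.91. In duodenum 1 of 3 pairs was positive and the mean r was -0.038 (rho -0.040). Against its own 200 length neighbours, a liver clock gene had a median r of 0.68 (Tef), 0.60 (Per3), 0.50 (Hlf), 0.47 (Cry2), 0.46 (Per2) or 0.17 (Per1), so other liver genes of that length varied with the clock genes too. In jejunum this median was 0.65 for Per3, 0.38 for Per2, 0.25 for Per1 and -0.28 for Nr1d1. In ileum it was 0.33 for Per3, 0.13 for Hlf, 0.13 for Nr1d2 and -0.036 for Per2, and in duodenum between 0.17 and 0.29. Without regard to length, the median r over all pairs of other coding genes of that minimum level was 0.12 in ileum, 0.0043 in liver, 0.039 in jejunum and 0.098 in duodenum. These points share their libraries and scaling, and the values are descriptions without a p.

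**Figure D3:**
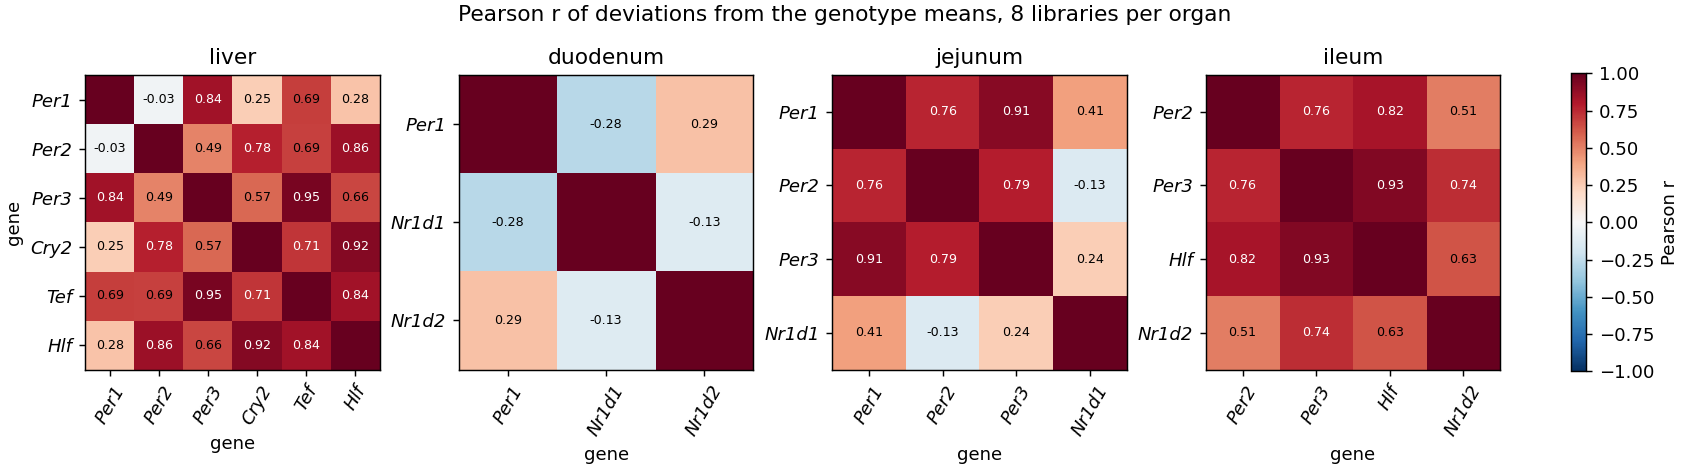
Pearson r between clock genes of each organ's table, over the deviations of 8 libraries from their genotype means, coloured from -1 (blue) to 1 (red). Liver, jejunum and ileum are mostly positive, with Per3 and Tef at 0.95 in liver and Per3 and Hlf at 0.93 in ileum, while duodenum is not.

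The length dependence of a library moved with these deviations. The mean deviation of the clock genes correlated with the library's length slope, both relative to the genotype mean, at r = 0.89 in liver, 0.93 in jejunum, 0.83 in ileum and 0.43 in duodenum. In liver WT replicates 1 and 3 lay at opposite ends of both measures. WT replicate 3 had a clock deviation of -0.41 and a slope deviation of -0.25, and without it the mean r of the liver pairs was 0.17. Taking out the length trend also lowered the liver mean r to 0.13, with 7 of 15 pairs positive. Liver Per3 and Tef nevertheless stayed at 0.90 and Per1 with Per3 at 0.89 after that step, while Per2 with Per3 turned to -0.76. In ileum the mean r was 0.75 and in jejunum 0.55 with the length trend taken out, with all pairs positive in both. The ileum value without any single library ran from 0.65 to 0.83 and that of jejunum from 0.31 to 0.64.

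**Figure D4:**
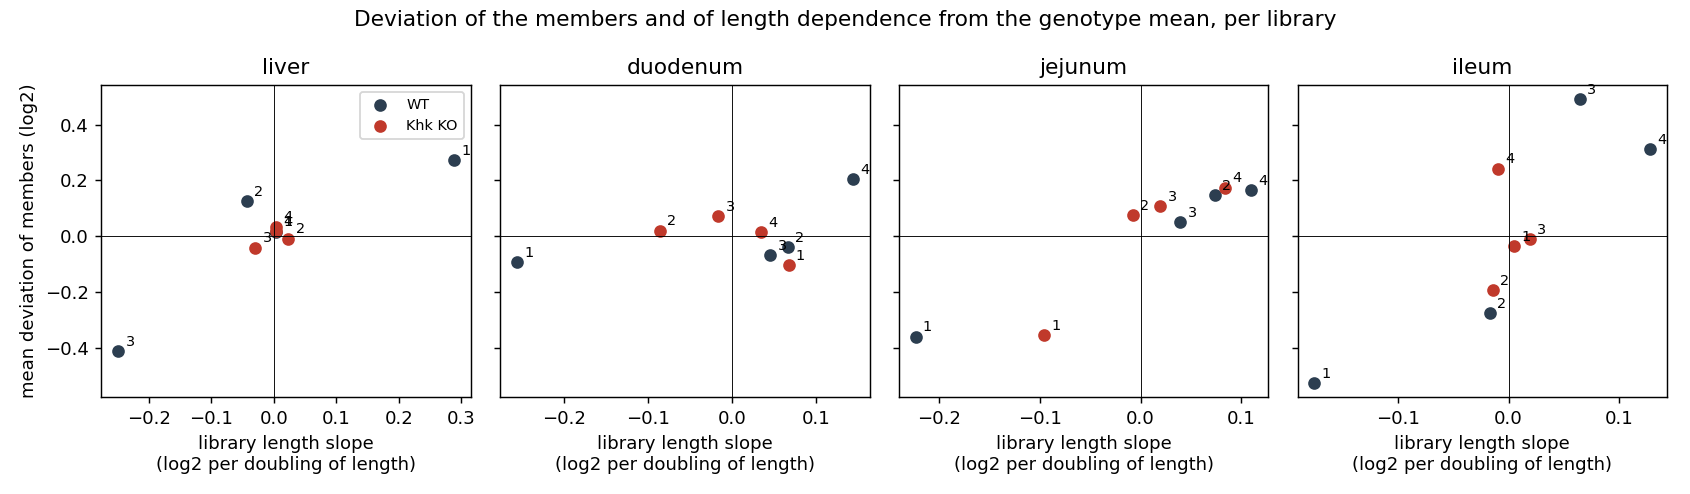
Mean log2 deviation of the clock genes from the genotype mean (vertical) against the deviation of the library's slope along gene length (horizontal, log2 per doubling of length), with the replicate number beside each library. WT replicate 3 in liver (-0.41) and WT replicate 1 in ileum (-0.53) are lowest on the vertical axis.

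The coding genes whose deviations followed the mean of the clock genes most closely were, in liver, Zc3h18 (r = 0.995), Plxna1 (0.990) and Rbfox2 (0.989), each over 8 libraries. In jejunum they were Ascc3 (r = 0.976), Macf1 (0.975) and Chd3 (0.974), and in ileum Mmrn1 (r = 0.985), Usp33 (0.976) and Synj1 (0.973). The closest in duodenum were Usp45 (r = 0.917), Cyb5d1 (0.833) and Rsad1 (0.831). No gene was named in more than 1 organ, but with 3 named per organ from tables of differing genes, a repeat was unlikely. Nothing is read from its absence. In liver, jejunum and ileum these 9 genes were at least 5868 bases long. The median length of the coding genes of that level was 4740 bases in liver, 4774 in jejunum and 4589 in ileum.

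The other genes of the pathway came from a list of 28 clock and clock-output genes, of which 11 were in at least 1 table, in 15 entries. Klf9, a transcription factor gene under clock and glucocorticoid control, was in 3 tables and rose in ileum. Clock, which encodes the DNA-binding activator, and Rora, which encodes the receptor that competes with the REV-ERBs for ROR elements, rose in ileum, and Rora rose in liver. Tspan4 fell in liver. By edgeR's quasi-likelihood test at an adjusted p under 0.05, 1 of 6 listed genes in the liver table was higher and 1 lower, and 3 of 4 were higher in ileum, where the shares of all genes called were 7.5% (higher) and 6.36% (lower). In liver those shares were 7.19% and 7.49%. These are shares of all genes the authors tested, while the listed genes are counted among those in a table. Among table genes 23.2% were called higher in ileum, and 20.5% were called higher and 21.4% lower in liver, so that the liver counts lay near the background. The test called 0 of 3 in duodenum and 0 of 2 in jejunum, against 0% of all genes called higher in both and 0.0064% and 0.0101% called lower. At an unadjusted p under 0.05 edgeR gave 2 in duodenum and 1 in jejunum, and DESeq2 called Ciart in duodenum and Dbp in jejunum. Shares of all genes passing these settings are not given here, so nothing is read from the counts. The authors' deposited table called 2 listed genes higher and 1 lower in liver, 3 higher in ileum and 0 in the other organs. The liver count of 2 was 0 without any 1 of Khk KO replicates 1, 2 and 4 and WT replicate 4, 1 without any 1 of Khk KO replicate 3 and WT replicates 2 and 3, and 6 without WT replicate 1. With the GC trend taken out 1 call was left in liver and 1 in ileum.

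Klf9 in ileum had 1235, 1344, 1225 and 1629 normalised counts in Khk KO against 853, 542, 738 and 753 in WT. No Khk KO ileum came near a WT ileum. Its log2 fold change was 0.93 ± 0.14 (SE) with an adjusted p of 0.0056 by edgeR's quasi-likelihood test, and 1.20 with an adjusted p of 0.0023 by edgeR with the length trend taken out. The Klf9 values of 0.56 in liver and 0.44 in jejunum did not pass the edgeR threshold (adjusted p 0.0909 and 0.451). Clock in ileum averaged 1574 ± 133 against 869 ± 105 normalised counts (SD, n = 4). The log2 difference was 0.87 ± 0.10 (SE) with an adjusted p of 0.0021 by edgeR. Rora in ileum averaged 295 ± 19.9 against 168 ± 38.3 normalised counts (SD, n = 4), with 0.83 ± 0.19 (SE) and an adjusted p of 0.019 by edgeR. These genes are 13727 and 13071 bases long. With the length trend taken out Clock was 0.20 and Rora 0.20 in ileum, and neither passed the edgeR threshold (adjusted p 0.902 and 1). In liver Rora had 1609.5, 1603, 1698 and 1737 normalised counts in Khk KO and 1421, 585, 431 and 689.9 in WT, where replicate 1 stood well above the rest. Its liver log2 fold change of 1.11 ± 0.31 (SE, adjusted p 0.039 by edgeR) became 0.29 with the length trend taken out (adjusted p 0.492 by edgeR). Tspan4 averaged 761 ± 53.7 against 1585 ± 556 normalised counts in liver (SD, n = 4). Its log2 difference was -1.03 ± 0.21 (SE, adjusted p 0.0195 by edgeR), and -0.47 with the length trend taken out (adjusted p 0.100 by edgeR).

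Among the shorter listed genes, Dbp in jejunum and Ciart in duodenum had values above 0 where most genes of their length lay below. Neither passed the edgeR test. Other short listed genes went both ways, with Klf9, Wee1 and Nfil3 above 0 and Elovl3 and Tspan4 below 0. Dbp, the PAR bZIP relative of Tef and Hlf, had 1896, 2292, 1985 and 1947 normalised counts in Khk KO jejunum against 1521, 1555, 1592 and 1501 in WT. Ciart, which encodes a repressor of CLOCK and BMAL1, had 227, 229, 229 and 228 in Khk KO duodenum against 202, 113, 117 and 144 in WT. Neither gene overlapped between the genotypes. Their log2 fold changes were 0.39 ± 0.11 (SE) for Dbp and 0.83 ± 0.15 (SE) for Ciart in the edgeR refit, with adjusted p-values of 0.237 and 0.798. In the authors' deposited table Dbp was 0.40 and Ciart 0.67, with length neighbours at a median of -0.42 for each. Wee1 at 0.44 and Csnk1d at 0.42 in liver, Nfil3 at 0.75 and Tspan4 at -0.19 in duodenum, Elovl3 at -0.56 in liver and Alas1 at -0.33 in ileum did not pass the edgeR threshold either. Alas1 in ileum, which encodes the rate-limiting enzyme of haem synthesis, was -0.64 with the length trend taken out, with an adjusted p of 0.0296 by edgeR. Arntl, Npas2, Cry1, Bhlhe40 and Bhlhe41 were among the listed genes not analysed here.

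**Figure D5:**
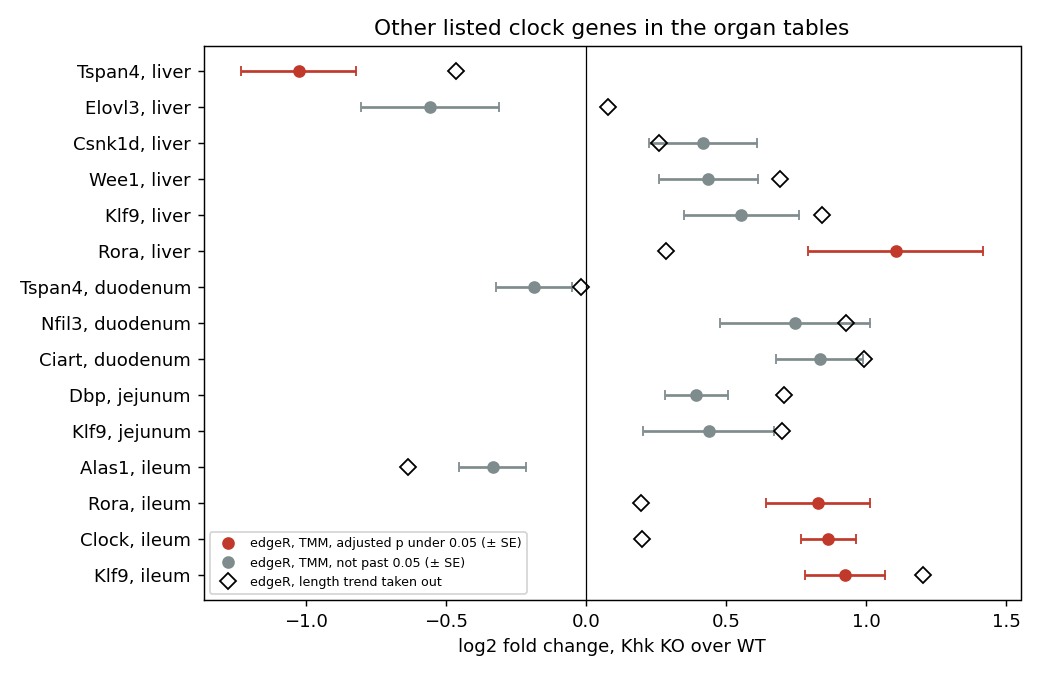
Log2 ratio of Khk KO to WT (± SE) of the other listed clock genes in each organ's table in the edgeR refit, red where the adjusted p was under 0.05, with open diamonds for the same gene once the length trend was taken out. Klf9 in ileum moves right to 1.20, while Rora and Clock in ileum move left to 0.20.

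Since Per1 and Klf9 also respond to glucocorticoids, a list of 8 glucocorticoid-induced genes was set beside them. In the liver library set, 2 of the 8 were in the table, Tsc22d3 with 1935 ± 555 against 1011 ± 278 normalised counts (SD, n = 4) and Sgk1 with 775 ± 199 against 491 ± 184 (SD, n = 4). Tsc22d3 rose by 0.96 ± 0.25 (SE) on the log2 scale with an adjusted p of 0.0329 by edgeR, and Sgk1 at 0.69 did not pass (adjusted p 0.116 by edgeR). In the intestine Mt1 was lower in Khk KO in all 3 tables, at -1.38 in duodenum, -1.12 in jejunum and -0.96 in ileum, and Pdk4 (1.05) and Errfi1 (0.64) were higher in jejunum, none past the edgeR threshold, while Mt1 in ileum had an adjusted p of 0.017 in the authors' deposited table. Mt2, in the duodenum table, fell under the low-count filter. Mt1 is 1246 bases long, its length neighbours had medians of -0.55, -0.58 and -0.63 in the authors' deposited table, and with the length trend taken out Mt1 was -0.98, -0.55 and -0.35, each in that order of organs. The part of this list in the values of Per1 and Klf9 was not tested.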

How the data were processed

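Libraries were poly-A RNA-seq of 4 organs and 2 genotypes. The submitters' processing notes name HISAT2 2.0.5 and GRCm38; the counting tool and the test are not given in the sources used here. Per the file headers, each table holds read counts, a normalised signal (the count divided by 1 size factor per library), FPKM, a log2 fold change and p-values, all made by the authors. Gene positions of the 8 members equalled GENCODE M21. Recomputing the deposited adjusted p-values gave the number of genes that the authors adjusted over, 16034 in ileum, 9881 in jejunum, 15615 in duodenum and 18225 in liver.

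Counts were refitted per organ in edgeR 4.0.16 (R 4.3.3; TMM, filterByExpr, quasi-likelihood F test), on the library totals that FPKM imply, with Benjamini-Hochberg adjustment over those numbers. The SE is the log2 fold change divided by the square root of F. Trends with length or transcript GC were lowess curves (span 0.5, genes with a mean of at least 10), used as offsets with the authors' size factors. Such a curve also removes any genotype effect that follows length. The curves were learned from the table genes alone, which were selected for a genotype difference, so they may overstate the trend over all genes. DESeq2 1.42.0 was an alternative, as were no low-count filter, a replicate term and leaving out each library. The edgeR step was tested on simulated data with a fixed dispersion, no length trend and most genes unchanged. The tables differ from that in holding only genes with a small p. The simulation therefore does not show how the refit performs on them. Python 3.11.15, numpy 2.4.6, pandas 2.3.3 and matplotlib 3.10.9 did the rest.

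The members, lists and rules were chosen with earlier results of these data known. Named genes are the members, the listed clock genes in a table, Thra, Khk and, per organ, the 3 coding genes (mean at least 100) most like the members' mean deviation.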

Additional observations from a re-analysis of the deposited data

Results flagged for a closer look

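In 1 of 34 groups of 4 libraries examined gene by gene, a single library stood apart by Dixon's ratio, where chance flags about 1 group in 20. Per3 in the WT liver of replicate 3 had 386 normalised counts, the lowest of 4, and the nearest other WT liver had 635, so that the gap was 0.939 of the group's range. The same library was lowest of the WT livers for Per1, Per2, Cry2, Tef and Hlf, and had the most negative slope along gene length. Without it the mean r between the liver clock genes was 0.17.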

How the results depend on the processing

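With the length trend taken out, the median log2 fold change of the clock genes became 0.20 in liver and 0.37 in duodenum, Tef in liver turned to -0.13 and Per3 in jejunum to -0.014, and the mean r became 0.13 in liver and 0.027 in duodenum, the latter a change of sign. That setting called 0 of the listed clock genes in liver. The authors' size factors and the authors' deposited table gave a duodenum median of 0.50. DESeq2 called 1 listed gene in duodenum and 1 in jejunum. The GC trend, added after seeing the data, left 1 call in liver and 1 in ileum. Leaving out single libraries gave medians of 0.38 to 0.87 in ileum, 0.39 to 0.63 in jejunum, 0.51 to 0.78 in duodenum and 0.66 to 0.86 in liver. The listed genes called then ran from 0 to 6 in liver, 6 being without WT replicate 1, and from 2 to 4 in ileum, and stayed at 0 in duodenum and jejunum. Mean r ran from 0.17 to 0.72 in liver and from -0.32 to 0.11 in duodenum, above 0 without any 1 of Khk KO replicates 2 and 4 and WT replicates 1 and 3. Of 255 values of single genes under the alternatives, 243 moved by less than the spread between libraries. Of the rest, 10 moved by more and 2 changed sign, all with the length or the GC trend taken out. In liver, taking out the length trend did so for every clock gene of the table but Per1. The 243 include many refits that differ little from the main one, so they do not speak for the length setting. Same-numbered libraries paired unevenly (r between -0.41 and 0.44). The best-matching WT library had the same number for Khk KO replicates 1, 3 and 4 in liver and 1 and 4 in jejunum. It also did for replicate 4 in duodenum and 3 in ileum, and not for the rest. With a replicate block the medians were 0.83, 0.65, 0.54 and 0.73 in liver, duodenum, jejunum and ileum. The listed genes called were 2, 0, 0 and 3 in that order, so the block changed no call count. The tables lack genes with a larger p, so depth and spread were learned from selected genes.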
